A study of Mus musculus with 24 samples.

Results

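The libraries described here are the luminal progenitor (LP) and mature luminal (ML) cells of Id4 knockout (KO) mice, 4 libraries of each, or 8 of the 24 libraries in the series. They were chosen by genotype and sorted population, with no measured value used, and the question put to them was whether the difference between these populations is smaller when Id4 is missing. The reference was the same contrast in wild-type (WT) mice, with 4 LP and 4 ML libraries. All groups came from adult female FVB/N mice aged 10 to 12 weeks and in estrus, and each replicate pooled the glands of 4 to 8 mice, so no value belongs to a single animal. The KO mice carry an Id4 allele from an earlier publication, whose construction the labels do not describe. No other allele, agent or treatment is named for any group. Live cells without lineage markers were sorted on CD24, on CD29 (integrin beta 1) and on CD61 (integrin beta 3). LP cells were CD24+ with low CD29 and CD61+, and ML cells were CD24+ with low CD29 and CD61-.

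ID4 belongs to the inhibitor of DNA binding proteins. These lack a basic region, pair with basic helix-loop-helix factors such as the E proteins, and so keep them from binding the short DNA element called the E-box. In the mammary gland the luminal layer is made of hormone-sensing cells, which carry the receptors for estrogen, progesterone and prolactin and signal to their neighbours, and of progenitors of the secretory alveolar lineage, which depend on the transcription factor ELF5 and express milk genes at a low level before pregnancy. The ML gate is enriched for the former and the LP gate for the latter.

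The promoters of 4 genes on which the comparison turns are shown because E-boxes are the element that E proteins bind. The sequences are from RefSeq on GRCm38.p6, plus strand, and end at the base before the start site. Elf5 lies at chr2:103411848-103412097, Spp1 at chr5:104434861-104435110, Prlr at chr15:10176988-10177237 and Pgr at chr9:8899583-8899832. Capitals mark the E-boxes CACCTG, its reverse complement CAGGTG, and CAGCTG, which reads the same on both strands.
Elf5: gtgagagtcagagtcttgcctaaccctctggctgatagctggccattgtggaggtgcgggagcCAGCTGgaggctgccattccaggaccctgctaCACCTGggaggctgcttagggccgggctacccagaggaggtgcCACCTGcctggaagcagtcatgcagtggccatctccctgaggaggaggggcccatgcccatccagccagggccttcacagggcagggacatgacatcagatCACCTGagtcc
Spp1: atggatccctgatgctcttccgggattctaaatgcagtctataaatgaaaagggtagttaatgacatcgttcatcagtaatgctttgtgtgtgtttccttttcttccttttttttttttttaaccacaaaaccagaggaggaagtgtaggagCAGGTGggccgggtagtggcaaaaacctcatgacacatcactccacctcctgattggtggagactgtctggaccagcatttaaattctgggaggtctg
Prlr: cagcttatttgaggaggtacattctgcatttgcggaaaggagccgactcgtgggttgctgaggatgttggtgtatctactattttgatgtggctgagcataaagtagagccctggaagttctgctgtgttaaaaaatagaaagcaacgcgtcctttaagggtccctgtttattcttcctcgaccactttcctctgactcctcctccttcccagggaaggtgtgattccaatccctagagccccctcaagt
Pgr: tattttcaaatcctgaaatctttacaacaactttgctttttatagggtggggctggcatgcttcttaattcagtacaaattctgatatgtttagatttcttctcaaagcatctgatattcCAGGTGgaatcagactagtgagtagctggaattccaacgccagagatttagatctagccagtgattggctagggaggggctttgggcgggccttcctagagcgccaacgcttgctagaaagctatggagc
The Elf5 window held 4 such E-boxes, the Spp1 and Pgr windows 1 each, and the Prlr window none. Each window belongs to the first start listed, of 2 for Elf5 and Spp1, 3 for Prlr and 1 for Pgr. Windows at the other starts were not searched for this count. The Elf5 window lies inside the gene positions given below. Among 32851 RefSeq promoter windows of 250 bases, 17.2% held CACCTG or CAGGTG and 13% held CAGCTG. The STAT element TTCNNNGAA, searched on both strands, was in none of the 4 windows and in 7.02% of all windows. These matches describe the letters only.

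The 16 luminal libraries held 3786225 to 7246445 counts each, so 3 counts correspond to 0.414 to 0.792 CPM (counts scaled to a common library total). Levels below are CPM after TMM scaling and are compared between libraries and not between genes. Id4 transcripts were near 0 in luminal cells of both genotypes, so the targeted gene cannot check the luminal labels. KO LP replicate 4 held 4 counts, KO ML replicate 3 held 5, and the other 6 KO luminal libraries held 0. The 8 WT luminal libraries held 0 to 7 counts. In the basal libraries, which were outside this scaling, Id4 stood at 0.910 to 10.97 CPM in KO and 11.8 to 91.2 CPM in WT. These basal values are scaled to the library total without TMM. In the KO group LP replicate 3 was the shallowest library and had the lowest median rank correlation with its own group (0.854, against 0.901 to 0.933 in the other KO luminal libraries). Mitochondrial ribosomal RNA took 13.6% to 35.1% of the counts of a luminal library, with the highest share in KO LP replicate 2.

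The populations matched the markers that name them. Itgb3 (chr11:104608000-104670476) encodes integrin beta 3, which is the CD61 of the sort, so its difference was set by the gate and is no finding. Its level was 379, 156, 119 and 149 CPM in KO LP replicates 1 to 4 and 0.510, 6.94, 3.40 and 1.57 CPM in the KO ML replicates. Every KO LP library lay far above every KO ML library. Elf5 (chr2:103411688-103450989), the transcription factor of the alveolar lineage, stood at 187, 138, 125 and 200 CPM in KO LP and at 9.97, 46.2, 3.40 and 19.1 CPM in KO ML. The groups did not overlap, and the highest ML value, in replicate 2, came closest to the LP range. The KO gap, LP minus ML, was 3.03 ± 0.59 on the log2 scale (SE; edgeR quasi-likelihood test, adjusted p = 0.00199), and the WT gap was 3.59. Prlr (chr15:10177238-10349180), the prolactin receptor, went the other way, with 759, 1216, 695 and 921 CPM in KO LP against 6958, 3502, 6998 and 7206 CPM in KO ML. Here too replicate 2 had the highest LP and the lowest ML value, without an overlap.

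**Figure D1:**
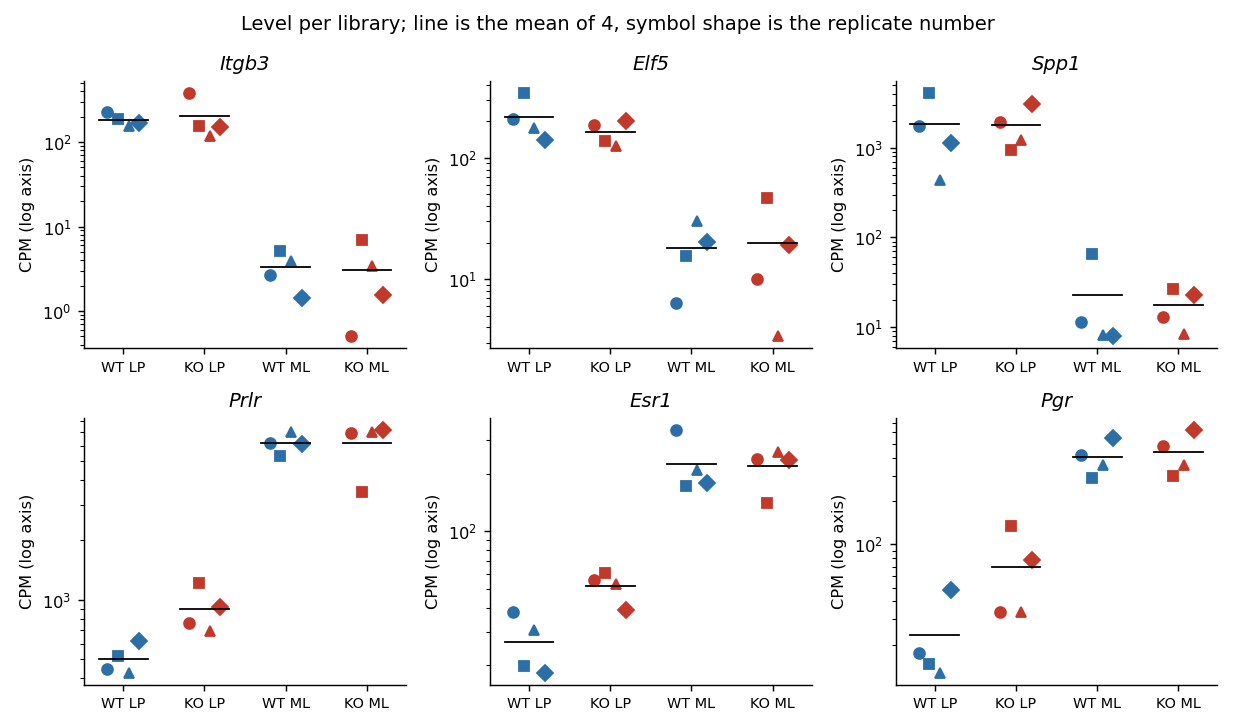
Level in CPM on a log axis of 6 genes in the 16 luminal libraries, with circles, squares, triangles and diamonds for replicates 1, 2, 3 and 4 and a line for the mean of 4. KO LP and KO ML do not overlap for any of the 6, beside 17.9% of all 13013 genes tested without an overlap. For Itgb3 this was set by the gate, and Spp1 was chosen among genes with separate libraries. The KO ML square (replicate 2) is the highest of its group for Elf5 and Itgb3 and the lowest for Prlr, Esr1 and Pgr.

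Of 13013 genes tested, 1839 (14.1%) differed between KO LP and KO ML (edgeR, adjusted p under 0.05). Higher in LP were 1117 (8.58%) and higher in ML 722 (5.55%). The KO LP and KO ML libraries did not overlap for 2325 of the 13013 genes (17.9%), the share to set beside each such remark on a gene. In WT the same fit called 2484 genes (19.1%), 1348 (10.4%) higher in LP and 1136 (8.73%) higher in ML. The KO and WT calls shared 1476 genes in the same direction, 80.3% of the KO calls and 59.4% of the WT calls, and no gene was called in opposite directions. Of the 363 genes called in KO alone, 354 had the same sign in WT, and of the 1008 called in WT alone, 980 had the same sign in KO. Across the 13013 genes, which are not independent replicates, the KO and WT gaps correlated with Pearson's r = 0.82 and Spearman's rho = 0.76. The numbers of calls follow the spread between libraries as well as the size of the gaps, so they do not compare the gaps themselves.

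The direct test of that difference called no gene. With the KO gap minus the WT gap as the contrast, edgeR passed 0 of 13013 genes (0%), DESeq2 passed 0 and limma voom passed 0. At an unadjusted p under 0.05 edgeR had 363 genes (2.79%), DESeq2 460 and limma voom 458. Of the 363, the KO gap was the narrower one in 266 (2.04% of all genes tested). A KO gap is called narrower where KO minus WT runs against the sign of the average of the KO and WT gaps. A gap that changed sign in KO can therefore count as narrower.

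Direction alone was examined among 4062 genes (31.2%) for which the average of the KO and WT gaps passed the test, a choice that favours neither genotype. The KO gap was the narrower one in 2544 of them (62.6%), beside 7149 of all 13013 genes (54.9%). The share was 56.7% among the 2203 genes higher in LP and 69.6% among the 1859 genes higher in ML. These shares depended on 1 pair of libraries. Without replicate 2 of both KO populations, an alternative chosen after seeing the data, the KO gap was narrower in 1748 of 4076 genes (42.9%), with 36.8% among those higher in LP and 50.0% among those higher in ML.

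The width of the gap was then measured over all genes at once. For each LP and ML library of one genotype and number, the LP minus ML log2 CPM of every gene was regressed through the origin on the mean LP minus ML difference over all 8 such pairs, so that a slope of 1 is a gap of average width. The KO pairs had widths of 1.14, 0.547, 1.12 and 1.04 for replicates 1 to 4, and the WT pairs 1.14, 0.995, 0.943 and 1.07. Replicate 2 of KO was the narrowest of the 8, while the other 3 KO pairs lay within or just above the WT range. The KO mean was 0.963 ± 0.280 and the WT mean 1.04 ± 0.0857 (SD, n = 4 each). The difference of -0.0742 was smaller than the KO spread and did not pass an exact two-sided permutation test over 70 assignments (p = 0.857, the smallest possible being 0.0286). Without KO replicate 2 the KO mean was 1.10 ± 0.0512 (n = 3) and the difference turned to 0.0643 (exact permutation p = 0.343).

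The narrow pair was narrow from both sides. A library's place on the same axis was 0.230 for KO LP replicate 2, against 0.526 to 0.644 in the other KO LP libraries. It was -0.318 for KO ML replicate 2, against -0.474 to -0.611 in the other KO ML libraries. The labels do not say whether the LP and ML cells of one number came from the same pool. KO LP replicate 2 had 35.1% mitochondrial ribosomal RNA and KO ML replicate 2 had 28.1%, and the part of RNA composition or of sorting purity in this pair was not tested.

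**Figure D2:**
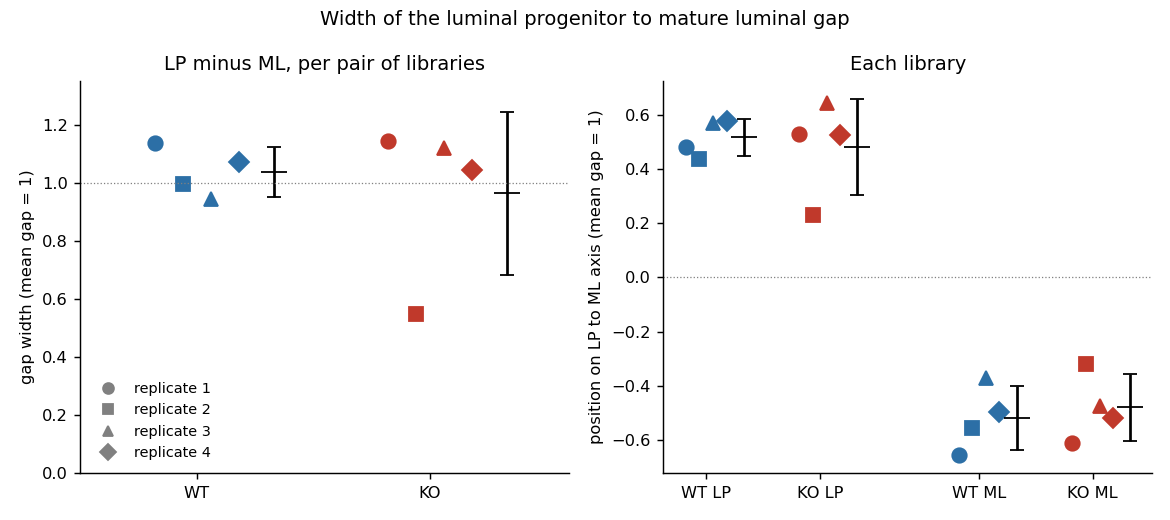
Left, the width of the LP to ML gap over 13013 genes for each numbered pair, in units of the mean gap, and right, the place of each luminal library on the same axis. Bars are the mean and SD of 4. The KO replicate 2 pair lies at 0.547 and its LP and ML libraries at 0.230 and -0.318, while the other 7 pairs lie between 0.943 and 1.14.

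Genes of the hormone-sensing programme were higher in KO ML than in KO LP, and their gap was smaller than in WT in nearly every case. Of 20 members tested (of 23 listed), 15 were called higher in KO ML and 17 higher in WT ML. The shares over all genes were 5.55% and 8.73%. Their median KO gap was -2.39 and their median WT gap -3.52, beside -0.01 and 0.00 over all genes tested. The KO gap was narrower in 19 of 20, the exception being Ptger3, a prostaglandin receptor. The share was 54.9% of all genes, and 69.6% of the 1859 genes higher in ML whose average gap passed. The difference between the gaps had an unadjusted p under 0.05 in 6 of the 20 (edgeR), beside 2.79% of all genes. None passed adjustment over all genes. Without KO replicate 2 the median KO gap was -2.76 and 16 of 20 were narrower. The shares were then 46.7% of the 13013 genes and 50.0% of the genes higher in ML whose average gap passed.

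The receptor genes were among those with a smaller KO gap. Esr1 (chr10:4611593-5005614), the estrogen receptor alpha gene, stood at 55.8, 61.0, 53.1 and 38.8 CPM in KO LP and at 240, 141, 259 and 235 CPM in KO ML. In WT LP its level was 37.8, 19.8, 30.4 and 18.3 CPM, so that each KO LP library was above each WT LP library, while the KO ML and WT ML libraries (173 to 339 CPM) overlapped. Its gap was -2.07 ± 0.28 in KO (SE; edgeR adjusted p = 6.1e-05) and -3.08 ± 0.29 in WT, a difference of 1.01 ± 0.38 (unadjusted p = 0.0159). Pgr (chr9:8899833-8968611), the progesterone receptor gene, stood at 33.9, 135, 34.0 and 77.3 CPM in KO LP and at 482, 300.5, 356 and 624 CPM in KO ML. Replicate 2 was again the highest in LP and the lowest in ML. The Pgr gap was -2.65 ± 0.47 in KO and -4.11 ± 0.50 in WT, a difference of 1.45 ± 0.63 (unadjusted p = 0.0325 by edgeR). For Prlr the gaps were -2.78 ± 0.26 and -3.61 ± 0.27, and the difference was 0.83 ± 0.35 (unadjusted p = 0.0275 by edgeR). None of these differences passed adjustment over all genes. Without replicate 2 of both KO populations they were 0.77 for Esr1, 0.78 for Pgr and 0.46 for Prlr. The unadjusted p values were then 0.065, 0.195 and 0.140 by edgeR.

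Regulators of the same programme showed the same direction. Tbx3, a T-box repressor needed for mammary development, stood at 21.2, 30.9, 45.1 and 22.1 CPM in KO LP and at 210, 89.4, 233 and 143 CPM in KO ML. All KO LP libraries were below all KO ML libraries. Its KO gap was -2.51 and its WT gap -3.97, with an unadjusted p for the difference of 0.00845 by edgeR. Foxa1, which opens chromatin for the estrogen receptor, had a KO gap of -2.44 and a WT gap of -3.74. Ly6a, which encodes the surface protein Sca-1, had a KO gap of -1.26 and a WT gap of -3.14, with an unadjusted p of 0.0026 by edgeR for the difference. Gata3, the luminal zinc-finger factor, differed in neither genotype at the threshold, with gaps of -0.97 and -1.05.

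Over the whole list the summed level lay between 1115 and 2340 CPM in the KO LP libraries and between 673 and 1159 CPM in the WT LP libraries, which overlap by their extremes. Replicate 2 held the highest KO LP value. In ML the sums were 6429 to 11905 CPM in KO and 9280 to 12110 CPM in WT, with KO replicate 2 the lowest. The mean of KO LP was above that of WT LP in 19 of 20 members, beside 6805 of all 13013 genes, and the mean of KO ML was above that of WT ML in 7 of 20, beside 6669 of all 13013. In sorted bulk samples, more cells of the other population in a gate and more RNA of these genes per cell cannot be told apart.

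The secreted signals of hormone-sensing cells were examined as a list of 10 tested genes that partly overlaps the one above. Areg, the amphiregin gene through which estrogen acts on neighbouring cells, and Wnt4, a target of progesterone, were the members called, both higher in ML. These were 2 of 10 in KO, and 3 of 10 were called higher in ML in WT. The shares over all genes were 5.55% and 8.73%. The list's median gap was -1.96 in KO and -0.55 in WT, farther from 0 in KO, and its median absolute gap was 1.96 and 1.10. Member by member the KO gap was narrower, in the sense defined above, in 8 of 10, beside 54.9% of all genes. Areg stood at 182, 309, 35.9 and 130 CPM in KO LP and at 1262, 667, 246 and 873 CPM in KO ML. The highest LP library exceeded the lowest ML library, and the call was lost without replicate 1 or replicate 4 of both KO populations (edgeR adjusted p = 0.092 and 0.091). Its gap was -2.21 ± 0.56 in KO and -3.82 ± 0.60 in WT. Wnt4 was more even, with 10.9 to 25.8 CPM in KO LP and 105 to 127 CPM in KO ML, and gaps of -2.76 ± 0.29 and -3.42 ± 0.29. Tnfsf11, which encodes RANKL, had fitted gaps of -4.67 in KO (edgeR adjusted p = 0.061) and -6.81 in WT, with few counts in LP.

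Among LP identity genes the share with a narrower KO gap was near that of all genes. Of 20 tested, 16 were called higher in KO LP, and Prom2, a prominin gene put on this list, was called higher in KO ML. In WT 17 were called higher in LP. The shares of all genes called higher in LP were 8.58% in KO and 10.4% in WT. The median KO gap was 2.62 and the median WT gap 2.98. The KO gap was narrower in 12 of 20, beside 54.9% of all genes, and in 8 of 20 without replicate 2, beside 46.7%, where the median was 3.21. Whether the lists differ from each other was not tested. None of the 20 had an unadjusted p under 0.05 for the difference by edgeR. Kit, the stem cell factor receptor, stood at 334, 245, 592 and 369 CPM in KO LP and at 34.1, 120, 18.5 and 67.0 CPM in KO ML. The groups were apart, with replicate 2 lowest in LP and highest in ML. Cbr2, a carbonyl reductase gene, stood at 84.0 to 273 CPM in KO LP and 0.850 to 4.52 CPM in KO ML, with a gap of 5.53 ± 0.50 in KO and 4.41 ± 0.46 in WT. Sox10, a neural crest factor that also marks mammary progenitors, had gaps of 2.62 ± 0.43 in KO and 3.62 ± 0.46 in WT (edgeR, unadjusted p for the difference 0.106).

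**Figure D3:**
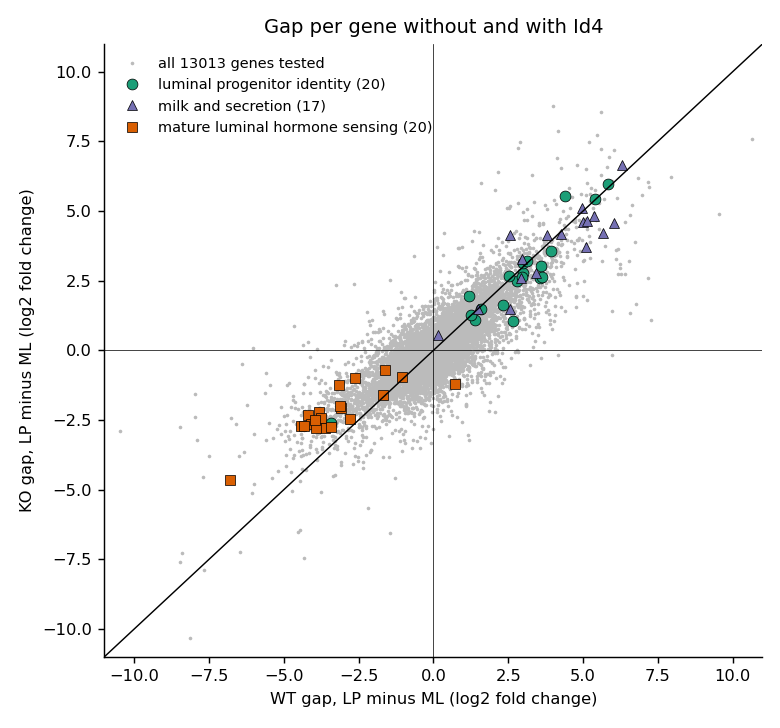
KO gap against WT gap for the 13013 genes tested, as LP minus ML log2 fold changes, with the diagonal where both are equal. The squares of the 20 hormone-sensing genes lie above the diagonal, nearer to 0 in KO, except for Ptger3, while the LP identity and milk genes lie on both sides of it.

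Milk and secretion genes were higher in LP in both genotypes. Of 17 tested (of 19 listed), 11 were called higher in KO LP and 12 higher in WT LP. The shares over all genes were 8.58% and 10.4%. The median gap was 4.14 in KO and 4.27 in WT. Spp1 (chr5:104435118-104441050), which encodes the secreted phosphoprotein osteopontin, stood at 1939, 946, 1224 and 3067 CPM in KO LP and at 13.02, 26.4, 8.30 and 22.6 CPM in KO ML. The gaps were 6.67 ± 0.89 in KO and 6.32 ± 0.88 in WT. Separate KO libraries were a condition of the ranking by size below, which also named Spp1. Btn1a1, the butyrophilin gene of the milk fat globule, stood at 1776 to 4265 CPM in KO LP. Its KO ML values were 34.3, 208, 30.6 and 51.0 CPM, with replicate 2 apart from the rest. Lalba, the alpha-lactalbumin gene, stood at 19.3, 3.61, 11.9 and 14.5 CPM in KO LP and at most at 0.870 CPM in KO ML.

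Csn2, the beta-casein gene, stood at 796, 6339, 917 and 2329 CPM in KO LP and at 3.04, 534, 2.83 and 14.6 CPM in KO ML. Replicate 2 was the highest in both populations, and in WT too, where LP replicate 2 stood at 30778 CPM and ML replicate 2 at 566 CPM. The KO gap of Csn2, 4.22 ± 1.82, did not pass (edgeR adjusted p = 0.153). Csn3, the kappa-casein gene, passed, with a gap of 4.59 ± 0.76. Without KO replicate 2 the list had 15 of 17 members called higher in KO LP and a median KO gap of 5.06. Of all 13013 genes, 1191 were called higher in KO LP without that replicate and 1117 with it. The KO gap was then narrower in 2 members instead of 11, beside 46.7% instead of 54.9% of all genes.

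Innate defence genes followed the secretory ones. Of 20 tested, 12 were called higher in KO LP and 15 in WT LP, beside 8.58% and 10.4% of all genes. The median gaps were 2.27 and 2.12. The KO gap was narrower in 15 of 20, and in 9 of 20 without replicate 2, beside 54.9% and 46.7% of all genes. Lcn2, the siderophore-binding lipocalin, stood at 2685, 1291, 2052 and 2901 CPM in KO LP and at 94.5, 213, 66.4 and 124 CPM in KO ML. The groups were wide apart, with gaps of 4.16 ± 0.44 in KO and 4.27 ± 0.44 in WT. C3, the central complement component, had gaps of 3.67 in KO and 3.82 in WT.

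Of 15 Notch pathway genes tested (of 23 listed), 5 were called higher in KO LP, and Jag1, which encodes a Notch ligand, was called higher in KO ML with a gap of -1.81 against -2.89 in WT. Over all genes 8.58% were called higher in KO LP and 5.55% higher in KO ML. The KO gap was narrower in 12 of the 15, and in 9 without replicate 2, beside 54.9% and 46.7% of all genes. The receptor genes Notch1 and Notch2 had KO gaps of 1.67 and 1.25, and the receptor gene Notch3 was near 0 at -0.18. The targets Hey1 and Hey2, both transcriptional repressors, had large KO gaps. The Hey2 call was lost in 8 of 30 alternatives, among them without KO LP replicate 1, its highest library (edgeR adjusted p = 0.131). Hey1 stood at 1048, 222, 61.6 and 157 CPM in KO LP and at 4.15 to 12.2 CPM in KO ML. Replicate 1 set the high end of LP, yet every LP library was above every ML library. Its gap was 5.45 ± 0.94 in KO and 5.39 ± 0.93 in WT. Maml2, a coactivator of Notch, had gaps of 1.90 ± 0.28 and 2.39 ± 0.28.

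A list of ID proteins, E proteins and factors of the epithelial-mesenchymal transition had 10 members tested. Of these, 1 was called in the KO gap, higher in LP, near the 8.58% of all genes. In WT 3 were called higher in ML, beside 8.73% of all genes. The member called in KO was Id1 (3.37 ± 0.91, edgeR adjusted p = 0.0158). Its level was 18.9, 2.41, 5.10 and 3.88 CPM in KO LP and 0.408 to 0.870 CPM in KO ML, close to the level of 3 counts in ML. Its call was lost in 6 of 31 alternatives, among them without KO LP replicate 1 (edgeR adjusted p = 0.102). Id3 had gaps of -0.72 in KO and -2.51 in WT, with an unadjusted p for the difference of 0.00788 by edgeR. The E protein genes Tcf3, Tcf4 and Tcf12 had KO gaps of -0.80, -0.14 and -0.53, none past the threshold.

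Prolactin signalling and growth factor genes were split between the populations. Beside Prlr, the kinase gene Jak2 (-0.89) and the feedback inhibitor gene Socs3 (-2.00) were called higher in KO ML, and Elf5 and Erbb4 (1.95) higher in KO LP, of 12 prolactin and STAT5 genes tested. Among all genes 5.55% were called higher in KO ML and 8.58% higher in KO LP. The KO gap was narrower in 10 of the 12, and in 7 without replicate 2, beside 54.9% and 46.7% of all genes. Egfr, the receptor of amphiregin, was 97.8 ± 9.24 CPM in KO LP and 16.6 ± 11.3 CPM in KO ML (SD, n = 4), with gaps of 2.55 in both genotypes. Its ligand gene Areg and the receptor gene were highest in opposite populations. Of 23 cell cycle genes tested, Pcna, the replication clamp gene, had the smallest p, and its KO gap of 0.66 did not pass (edgeR adjusted p = 0.101).

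**Figure D4:**
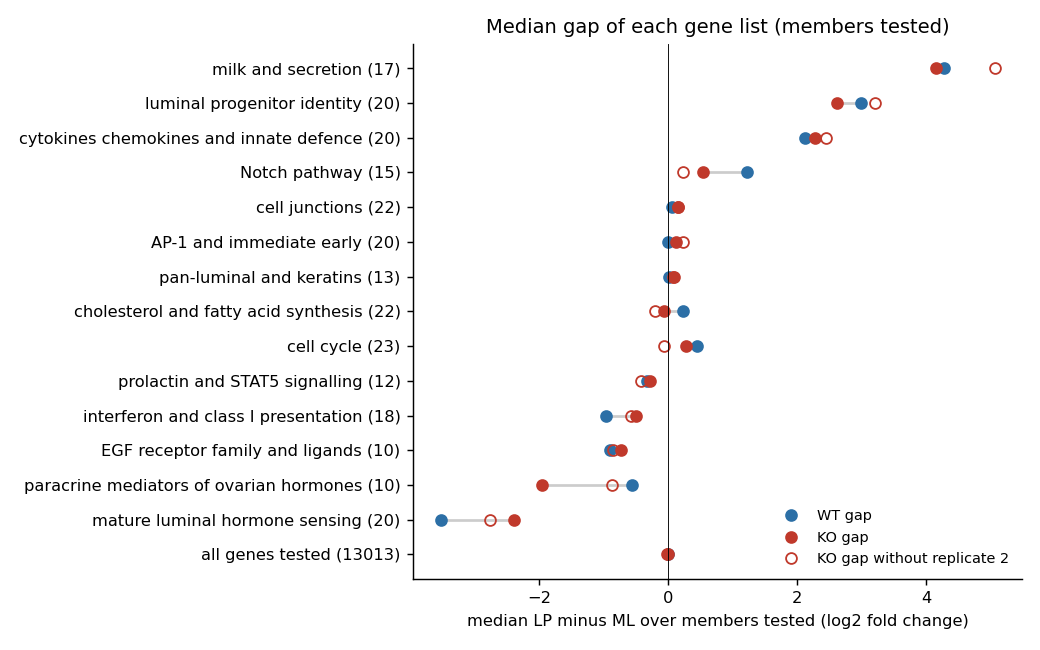
Median LP minus ML log2 fold change over the tested members of each gene list, for WT, for KO and for KO without replicate 2. The hormone-sensing median is -3.52 in WT and -2.39 in KO, the paracrine median -0.55 and -1.96, and the milk median goes from 4.14 to 5.06 without KO replicate 2.

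Metabolic, junction and matrix genes added a small number of strong contrasts. Scd1, which encodes a fatty acid desaturase, was 964 ± 175 CPM in KO LP and 172 ± 52.1 CPM in KO ML, with gaps of 2.48 and 2.47. Of 22 tested genes of lipid synthesis, 5 were called higher in KO LP and 2 in KO ML, beside 8.58% and 5.55% of all genes, so that the count in ML was near the share of all genes. Cldn10, a tight junction claudin gene, was 6.45 ± 1.75 CPM in KO LP and 35.1 ± 8.04 CPM in KO ML, with gaps of -2.43 ± 0.32 in KO and -3.53 ± 0.34 in WT (edgeR, unadjusted p for the difference 0.0231). Lama5, a laminin chain gene of the basement membrane, had gaps of -1.63 ± 0.25 and -2.27 ± 0.26. Ifitm3, an interferon-induced membrane protein gene, had gaps of -1.71 ± 0.30 and -1.93 ± 0.30. Of 18 tested interferon and antigen presentation genes, 4 were called higher in KO ML and 7 in WT ML. Over all genes the shares were 5.55% and 8.73%. Fosl2, an AP-1 subunit gene, had gaps of 2.18 and 2.19.

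By size alone, the genes with the largest KO gaps towards LP were Fndc1, Pi16, Cd248, Spp1, Lao1 and Cck. Fndc1 stood at 91.3, 15.1, 81.5 and 75.0 CPM in KO LP and at most at 0.870 CPM in KO ML, with gaps of 7.72 ± 0.95 in KO and 5.49 ± 0.88 in WT. Pi16 and Cd248, both known from fibroblasts and other stromal cells, stood at 11.2 to 61.2 CPM and 9.95 to 40.6 CPM in KO LP. Cck, the cholecystokinin gene, had gaps of 6.30 ± 0.57 and 5.61 ± 0.53, and Lao1, an L-amino acid oxidase gene of milk, 6.59 ± 1.37 and 5.81 ± 1.25.

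Transcripts of fibroblasts were part of that contrast. Of 12 tested fibroblast markers, 8 were called higher in KO LP and 9 higher in WT LP, beside 8.58% and 10.4% of all genes. Fn1, the fibronectin gene, stood at 318, 52.1, 248 and 204 CPM in KO LP and at 4.56 to 10.9 CPM in KO ML. The summed level of the whole list was 1074, 277, 553 and 626 CPM in KO LP and 450, 248, 123 and 344 CPM in KO ML, and none of its 13 genes was at 0 in all KO luminal libraries. Replicate 2, the narrow pair, had the lowest sum in LP. The decorin gene Dcn made up much of the ML sums, at 78.9 to 388 CPM. The part of these cells in the KO gap was not tested.

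Towards ML the genes with the largest KO gaps under the same conditions included Krt1, Krt10, Tph1, Agtr1a and Pcdhac2. Krt1 and Krt10 are keratins of the upper layers of skin. Krt1 had 22, 240, 287 and 2 counts in the KO ML libraries and 2 counts over all KO LP libraries, a ratio of KO ML to KO LP of 247, with a counting interval (exact, 95%) of 67.9 to 2040. In the edgeR test the calls of Krt1 and Krt10 were each lost in 9 alternatives, among them without KO LP replicate 1, 3 or 4. A list of epidermal genes, Krt10 among them, was added after this was seen, so its count is not independent of these values. It had 6 of 9 tested members called higher in KO ML, beside 5.55% of all genes. Its summed level was 34.0, 134, 279 and 15.3 CPM in KO ML and 12.6 to 45.1 CPM in KO LP, so that replicates 2 and 3 of ML stood apart and the groups overlapped. Trp63 and Krt5, basal cell markers that skin also expresses, were highest in the same ML replicates, at 19.7 and 20.4 CPM for Trp63 and 29.0 and 39.8 CPM for Krt5. The part of skin cells was not tested.

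**Figure D5:**
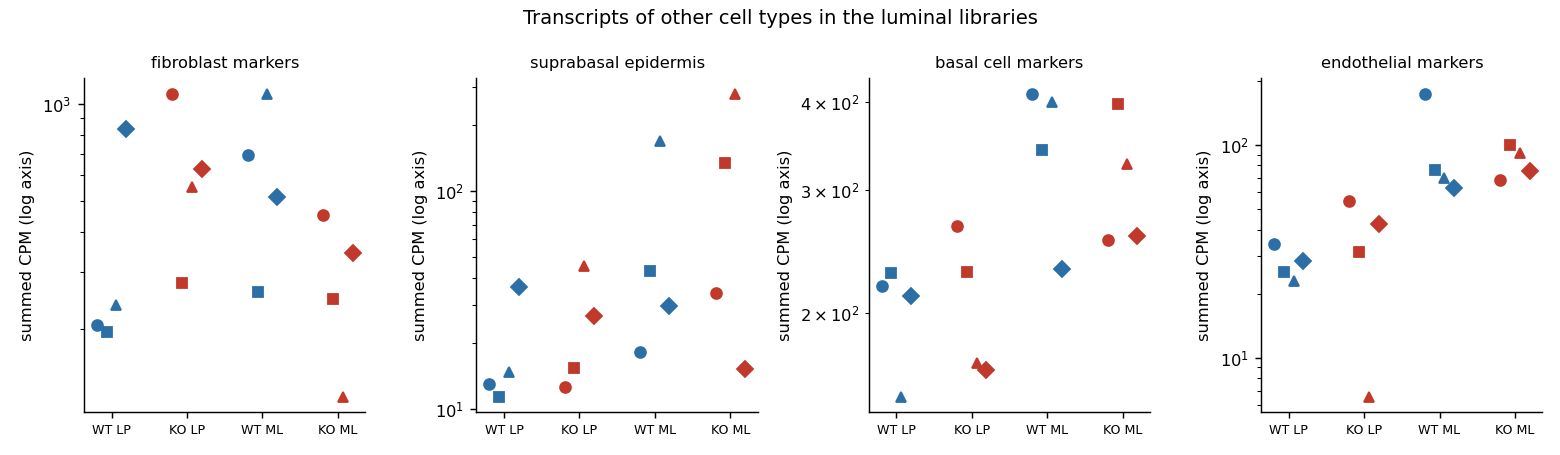
Summed CPM, on a log axis, of marker lists of other cell types in the 16 luminal libraries, with circles, squares, triangles and diamonds for replicates 1, 2, 3 and 4. Fibroblast sums run from 277 to 1074 CPM in KO LP and from 123 to 450 CPM in KO ML, and epidermal sums reach 279 CPM in KO ML replicate 3.

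The other genes named in that group are not skin genes. Tph1, which encodes the rate-limiting enzyme of peripheral serotonin synthesis, stood at 5.34, 25.1, 9.46 and 13.1 CPM in KO LP and at 88.2, 194, 192 and 304 CPM in KO ML. Its gaps were -3.87 ± 0.42 in KO and -4.69 ± 0.44 in WT, and separate KO groups were a condition of its choice. Agtr1a, an angiotensin II receptor gene, had gaps of -3.71 ± 0.68 and -4.27 ± 0.69. Pcdhac2, a clustered protocadherin gene, stood at 9.95 to 21.4 CPM in KO LP and 152 to 224 CPM in KO ML, with gaps of -3.60 ± 0.36 and -4.49 ± 0.39.

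The genes with the smallest p for the difference between the gaps did not pass, with an adjusted p of 0.9998 each (edgeR). Over all genes 2.79% had an unadjusted p under 0.05, so these genes are described and not offered as near calls. In 5 of them the KO gap minus the WT gap was above 0, each with a gene higher in ML and a KO gap nearer to 0. Agtrap, an angiotensin receptor-associated protein gene, stood at 18.5, 19.1, 19.9 and 8.12 CPM in KO LP and at 32.3, 37.3, 30.9 and 35.9 CPM in KO ML. In WT LP it was 6.42 to 8.25 CPM, below every KO LP library except replicate 4, and in WT ML 42.3 to 58.5 CPM. Its gap was -1.06 ± 0.26 in KO and -2.77 ± 0.28 in WT, a difference of 1.71 ± 0.37 (edgeR, unadjusted p = 0.00019). Bmp3, a bone morphogenetic protein gene, had gaps of -2.63 ± 0.39 and -4.93 ± 0.44, and its LP level was 18.7 to 33.2 CPM in KO and 2.98 to 13.5 CPM in WT. Phyh, a peroxisomal enzyme gene, had gaps of -1.86 and -3.66, Zcchc24 of -1.91 and -3.65, and Lpin2, which encodes a phosphatidate phosphatase, of -1.55 and -3.08.

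With a difference below 0, the 5 smallest p belonged to Snhg6, Arl4c, Slit2, Nav2 and AI606181. For Nav2 and Snhg6 the KO gap was again the one nearer to 0. Nav2, a neuron navigator gene, was even in KO, with 149 to 213 CPM in LP and 99.8 to 228 CPM in ML, and higher in LP in WT, with 162 to 244 CPM against 43.2 to 112 CPM. Its gap was 0.02 ± 0.28 in KO and 1.24 ± 0.29 in WT (edgeR, unadjusted p = 0.00688 for the difference). Slit2, which encodes a secreted guidance ligand, stood at 0 to 1.33 CPM in KO LP and 3.67 to 10.6 CPM in KO ML, with gaps of -3.31 in KO and -0.08 in WT (unadjusted p = 0.00612 by edgeR).

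The sort markers other than CD61 gave no called difference in KO. Itgb1, the CD29 gene, was 292 ± 29.9 CPM in KO LP and 273 ± 26.1 CPM in KO ML. Cd24a was 1196 ± 521 CPM in KO LP and 1870 ± 599 CPM in KO ML (edgeR adjusted p = 0.170), and was called higher in ML in WT (gap -1.09 ± 0.30).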

How the data were processed

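The authors deposited expected counts per gene without normalization, which the values bear out. Per the submitters' processing notes, cutadapt, STAR and RSEM were used with mm10. The sources used here give no versions or settings. Between 0.5 and 2 ng of RNA was amplified without molecular identifiers, per the labels' protocols, so intervals cover counting error only. Counts were rounded to whole numbers, and gene positions came from GENCODE on mm10, which held 99.1% of the identifiers.

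The 16 luminal libraries were fitted together with edgeR 4.0.16 in R 4.3.3 (quasi-likelihood test, two-sided, TMM scaling, default expression filter, robust, Benjamini-Hochberg at 0.05, no block), with DESeq2 1.42.0 and limma 3.58.1 as alternatives. Log2 CPM for the gap width used a prior count of 2. The scripts were tested on simulated data. The labels call the 4 libraries of a group biological replicates, and within-group pairs differed beyond counting noise (chi-square per degree of freedom at least 21.3 over 24 pairs). Replicate numbers are those of the titles. The replicate tags of the KO ML samples read 2, 3, 3 and 4 for titles 1 to 4.

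The members and gene lists were chosen with earlier results of these data known. Named genes were the 6 largest KO gaps in each direction with at least 20 CPM and separate libraries, the 3 largest members of each identity list, the member with the smallest p of each other list, and the 5 smallest p of the gap difference in each direction. Genes named beyond this rule were chosen after their values were seen. One gene that the rule picked is not reported here.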

Additional observations from a re-analysis of the deposited data

Results flagged for a closer look

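In 14 of 113 groups of 4 libraries the highest or lowest library stood apart from the others by Dixon's criterion. Chance gives this in about 1 in 20 groups of normally distributed values, which CPM need not be. Where the others are all at 0, as for Hba-a1 and Id4 below, any count meets the criterion. In KO LP, replicate 1 stood high for Itgb3 (379 CPM, median of the others 149), Hey1 (1048 CPM, 157), Hey2 (15.2 CPM, 1.03) and Id1 (18.9 CPM, 3.88). KO LP replicate 2 stood high for Phyh (66.3 CPM, 33.5) and for the hemoglobin gene Hba-a1 (0.859 CPM, with the others at 0). KO LP replicate 4 stood low for Agtrap (8.12 CPM, 19.1) and held 0.706 CPM of Id4 where the others held 0.

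In KO ML, replicate 2 stood low for Prlr (3502 CPM, median of the others 6998) and high for Btn1a1 (208 CPM, 34.3). KO ML replicate 1 stood high for Lama5 (340 CPM, 238). KO ML replicate 3 stood high for Arl4c, a small GTPase gene (34.9 CPM, 14.8), and held 0.944 CPM of Id4 where the others held 0. The gap width of KO replicate 2, 0.547 against a median of 1.12 in the other KO pairs, also stood apart.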

How the results depend on the processing

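No alternative called a gene for the difference between the gaps, with edgeR, DESeq2 or limma voom, and the unadjusted counts were 460 with DESeq2 and 458 with limma voom. With all 24 libraries in the fit, 903 genes were called in the KO gap and 1282 in the WT gap, and the KO gap was narrower in 1675 of 2602 genes (64.4%). Within replicates 1 and 2 the KO gap had 252 calls and the WT gap 1187, the KO gap was narrower in 1707 of 2129 genes (80.2%), and the difference in gap width was -0.222. Within replicates 3 and 4 the KO gap was narrower in 1628 of 3591 genes (45.3%). Without replicate 1 or without replicate 4 in both KO populations, alternatives added after seeing the data, the KO gap had 1067 and 932 calls. Leaving out 1 library at a time gave 1313 to 2173 calls for the KO gap, 1898 to 2783 for the WT gap, 0 to 0 for their difference and 2089 to 2740 genes with a narrower KO gap. The difference in gap width ran from -0.134 to 0.0643 when 1 pair was left out, with the reversal at KO replicate 2, and was 0.0735 within replicates 3 and 4. The cause of these changes was not tested.

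A fit with the replicate number as a block called 2461 genes in the KO gap, 3001 in the WT gap and 0 for the difference (498 at an unadjusted p under 0.05 by edgeR), with 2808 of 4582 genes narrower in KO. The labels do not say that a number marks a shared pool. Deviations of the LP and ML libraries of the same number correlated at 0.0427 to 0.310 in KO, and 7 of 8 LP libraries correlated best with their own number.

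Some small values changed sign. The Notch3 KO gap became 0.061 with limma voom, 0.14 within replicates 3 and 4 and 0.20 without replicate 1 of both KO populations, and ran from -0.34 to 0.17 when single libraries were left out, with the reversal at KO ML replicate 1. The Elf5 gap difference became 0.040 with limma voom, 1.16 within replicates 3 and 4 and 0.38 without replicate 2 of both KO populations, and ran from -0.91 to 0.31, with the reversal at KO ML replicate 2. The Itgb3 gap difference became -0.21 within replicates 3 and 4 and -0.74 without replicate 1 of both KO populations. It ran from -0.36 to 0.96, and reversed without KO LP replicate 1 (-0.36), KO ML replicate 1 (-0.23), KO ML replicate 4 (-0.07) or WT ML replicate 2 (-0.15), and was 1.07 without replicate 2 of both KO populations. Of 1429 recomputed KO gaps of named genes, 1344 kept their direction and side of the threshold, 71 lost the call and 10 gained it. With 4 libraries a group, the standard error of a gap difference was 0.38 for Esr1 and 0.63 for Pgr on the log2 scale, which sets the size detectable here.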
